A study of Mus musculus with 9 samples.

Results

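The 10 genes described here encode the MHC class I antigen presentation pathway: the heavy chains *H2-K1* and *H2-D1*, the light chain *B2m*, the peptide transporter *Tap1* and *Tap2*, the loading factor *Tapbp*, the immunoproteasome subunits *Psmb8* and *Psmb9*, the transactivator *Nlrc5* and the trimming peptidase *Erap1*. They were chosen by symbol from the 35275 genes of the count table, each symbol matched exactly 1 Ensembl identifier, and all 10 were among the 15821 genes that passed the filter on low counts and were tested. RNA came from 9 mammary gland tumors that arose in Brca1Co/Co;MMTV-Cre;p53+/- mice. In these animals the MMTV promoter drives Cre in mammary epithelium to recombine the conditional Brca1 alleles, and 1 p53 allele is missing throughout the body, so every group, saline included, carried the same BRCA-deficient genotype. Once a tumor measured 4 to 5 mm, mice received 5 doses, 3 per week, of saline (tumors A3673, A3685 and A3688), of free Talazoparib given intravenously (i.v. TLZ, tumors B3638, B3684 and B3700) or of Talazoparib in liposomal nanoparticles (NanoTLZ, tumors C3519, C3669 and C3698). Talazoparib is a PARP inhibitor, and both treated groups received 0.33 mg/kg. Saline and NanoTLZ were given intravenously as well, so the route was the same in every group. The tumors of a group came from different mice, so each tumor was 1 biological replicate. Neither the age of each mouse nor the strain is given in the sources used here. The authors state only an average age at which mice of this model develop tumors.

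MHC class I molecules display short peptides from inside the cell to CD8+ T cells. The proteasome cuts proteins into peptides, the TAP transporter carries them into the endoplasmic reticulum, aminopeptidases trim them there, and tapasin helps to fit them onto a heavy chain paired with beta-2-microglobulin. Nearly all nucleated cells make these proteins, leukocytes usually more than epithelial cells, interferon-gamma raises most of the genes together, and NLRC5 is the transactivator that acts on class I promoters.

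The counts per tumor on all genes ranged from 17538380 to 21194980, and no pair of columns was identical. Levels below are CPM, the counts scaled to the size of each library after TMM normalization. The epithelial keratin genes *Krt8* and *Krt18* were at 499 CPM or more in every tumor. *Brca1* ranged from 9.46 to 42.7 CPM and *Parp1*, the drug target, from 52.3 to 172 CPM, and a count over the whole *Brca1* gene does not separate recombined from intact alleles. The saline tumor A3688 stood apart in genes of other kinds: *Krt5* was at 1849 CPM in it and at 2.296 to 72.9 CPM in the other 8, and 4 skeletal muscle genes summed to 558 CPM. The log2 differences from saline are therefore also given without A3688, after the comparisons.

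The promoter sequences of the genes were compared first. Promoter windows of 300 bases, 250 before and 50 after the annotated start, were taken from RefSeq (GRCm38.p6) and were found for 8 of the 10 genes. *Tap2* and *Nlrc5* are named only, and the first of 2 windows is used for *H2-K1*. Both strands were searched for 4 letter patterns: an interferon response core (GAAANNGAA or GAANNGAAA, the second form added after the *H2-K1* window was read), the GAS site (TTCNNNGAA), the CCAAT box, and a kappa-B pattern (GGGNNTTCC). In the lines below, capitals mark these matches, and the heavy and light chain promoters are shown because they carry most of them.

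H2-K1 (chr17:34000298-34000597, minus strand): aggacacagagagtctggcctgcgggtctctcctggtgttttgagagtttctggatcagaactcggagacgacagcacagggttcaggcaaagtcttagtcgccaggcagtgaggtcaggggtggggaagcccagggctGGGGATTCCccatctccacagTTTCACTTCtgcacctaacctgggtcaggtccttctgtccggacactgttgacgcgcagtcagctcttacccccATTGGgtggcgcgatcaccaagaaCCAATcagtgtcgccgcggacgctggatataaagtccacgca

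H2-D1 (chr17:35262844-35263143, plus strand): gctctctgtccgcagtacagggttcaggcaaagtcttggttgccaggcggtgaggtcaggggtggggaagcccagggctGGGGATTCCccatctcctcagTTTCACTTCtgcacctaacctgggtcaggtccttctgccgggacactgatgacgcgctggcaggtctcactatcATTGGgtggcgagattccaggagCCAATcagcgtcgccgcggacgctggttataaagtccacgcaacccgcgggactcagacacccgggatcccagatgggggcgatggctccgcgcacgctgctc

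B2m (chr2:122147437-122147736, plus strand): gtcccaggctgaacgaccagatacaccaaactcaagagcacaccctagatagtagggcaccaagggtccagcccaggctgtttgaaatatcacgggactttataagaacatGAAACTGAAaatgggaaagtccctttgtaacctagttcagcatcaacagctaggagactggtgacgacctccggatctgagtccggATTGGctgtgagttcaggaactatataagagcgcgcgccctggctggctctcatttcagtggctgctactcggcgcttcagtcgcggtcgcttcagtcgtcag

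In *H2-K1* the kappa-B match GGGGATTCC begins 111 bases and the interferon core TTTCACTTC 90 bases before the start, and both letter strings recur in *H2-D1*, at 171 and 150 bases before its start. In a global alignment of the 2 windows, 218 of the 239 paired bases were identical (91.2%). The rest of each window of 300 bases fell in gaps. *B2m* holds another interferon core, GAAACTGAA, 139 bases before its start and no match to the kappa-B pattern GGGNNTTCC. Other forms of a kappa-B site were not searched. The interferon core was present in 4 of the 8 windows (*H2-K1*, *H2-D1*, *B2m* and *Erap1*), against 14.8% of all 32841 RefSeq windows. By the form searched at first, GAAANNGAA alone, it was present in 2 of the 8 (*B2m* and *Erap1*), against 8.56% of all windows. The 2 heavy chain matches are the same letters in windows that share much of their sequence, as given above. The CCAAT box was present in 6, against 37.4% of all windows. The kappa-B pattern occurred in the 2 heavy chain windows alone, against 5.82% of all windows, and the GAS site in *Psmb8* alone, against 8.3% of all windows.

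*Tap1* and *Psmb9* lie head to head, and their windows cover 275 of the same bases. The *Tap1* window is shown for this shared stretch, with the CCAAT box in capitals as its one match.

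Tap1 (chr17:34187306-34187605, plus strand): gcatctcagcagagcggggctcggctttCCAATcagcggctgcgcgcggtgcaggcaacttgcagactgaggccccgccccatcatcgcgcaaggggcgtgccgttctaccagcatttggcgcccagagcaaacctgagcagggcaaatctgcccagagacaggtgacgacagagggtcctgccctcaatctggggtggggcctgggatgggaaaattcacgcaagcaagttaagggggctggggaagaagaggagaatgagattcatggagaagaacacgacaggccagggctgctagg

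The start of *Tap1* is 226 bases from the start of *Psmb9*, and the CCAAT box read here 222 bases before the *Tap1* start is the ATTGG found 8 bases before the *Psmb9* start on the other strand. A match is only a run of letters and does not show that a factor binds there.

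No class I presentation gene passed the test between any groups, and all of them varied widely between tumors of the same group. Fitted levels were higher than in saline for 8 of the 10 genes after i.v. TLZ and for 9 of the 10 after NanoTLZ, with median log2 differences of 0.34 and 0.64, while the medians over all tested genes were -0.03 and -0.09. Both treated groups were compared with the same 3 saline tumors, so the 2 sets of differences are not independent. In edgeR's quasi-likelihood test with Benjamini-Hochberg adjustment over all tested genes, 0 of the 10 genes were called for i.v. TLZ against saline, where 0% of all tested genes were called, and 0 of 10 for NanoTLZ against saline, where 0.00632% were called (*Col2a1* alone). An unadjusted p under 0.05 was reached by 0 of the 10 in either comparison, beside 10.4% of all tested genes for i.v. TLZ and 8.99% for NanoTLZ. DESeq2, fitted to all 9 tumors or to the groups compared, called 0 of the 10 as well. The groups overlapped for every one of the 10 genes, where 11.2% and 15.9% of all tested genes had no overlap with saline. In bulk tumor RNA, fewer cells of a type and less RNA per cell cannot be told apart.

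**Figure D1:**
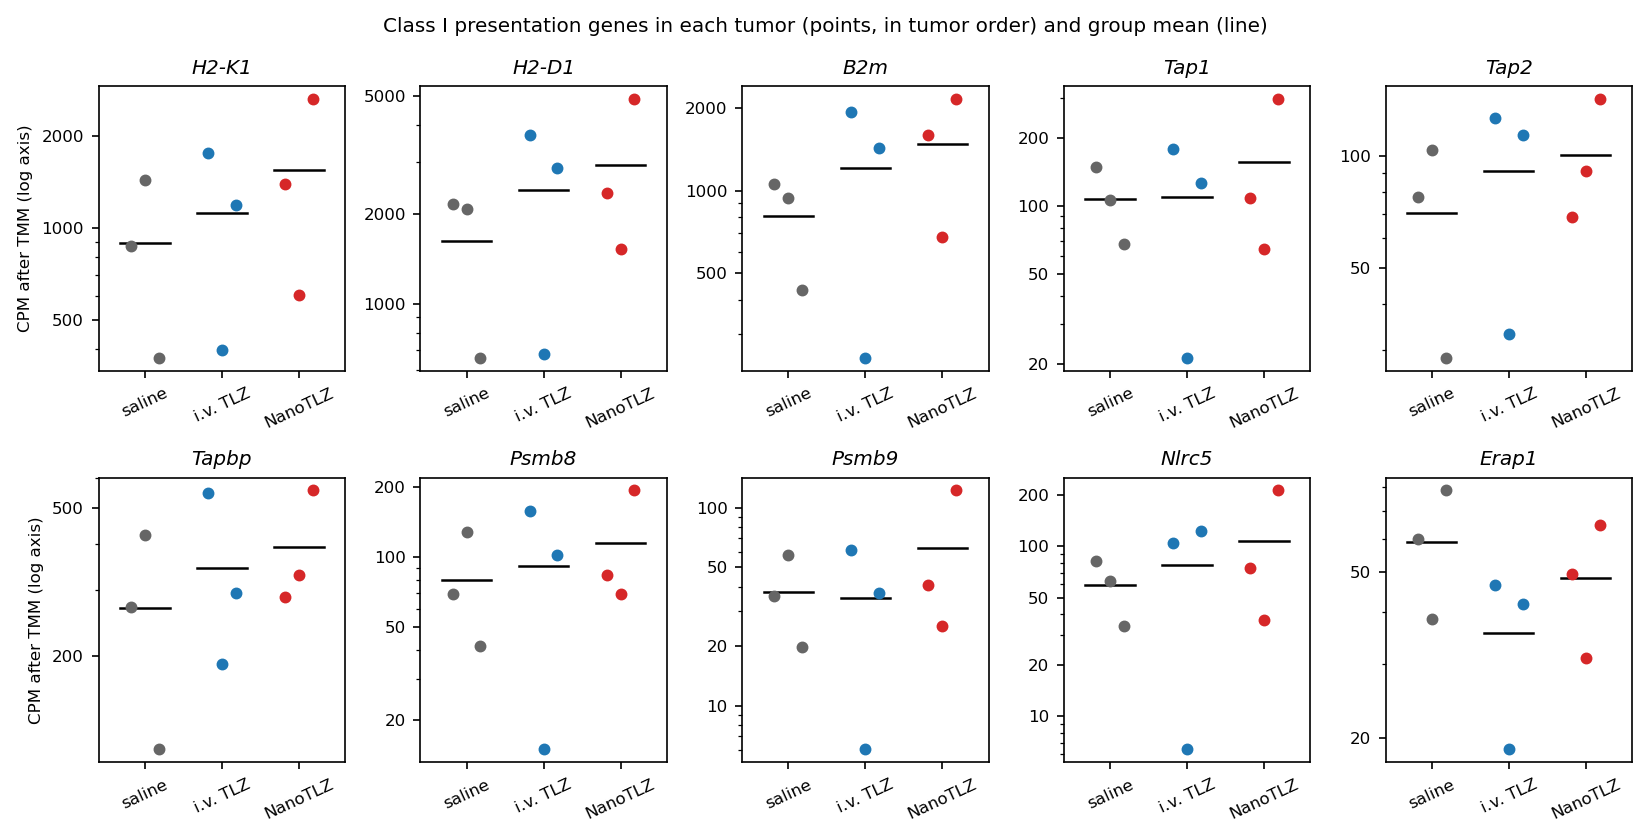
CPM after TMM scaling of the 10 genes, 1 panel per gene on a log axis, with 1 point per tumor in the order of the tumor numbers and a line at the mean of each group of 3. In the saline and i.v. TLZ groups 1 tumor, A3688 or B3684, lies below the other tumors of its group for 9 and 10 of the 10 genes, and C3698 is the highest NanoTLZ tumor in every panel.

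*H2-K1* (ENSMUSG00000061232, chr17:33996017-34000347, minus strand, GRCm38) and *H2-D1* (ENSMUSG00000073411, chr17:35262730-35267499, plus strand) encode the classical heavy chains, which hold the peptide. *H2-K1* was at 873, 1429.5 and 375 CPM in the saline tumors A3673, A3685 and A3688, at 1761, 399 and 1188 CPM in the i.v. TLZ tumors B3638, B3684 and B3700, and at 1389, 602 and 2643 CPM in the NanoTLZ tumors C3519, C3669 and C3698. In the same order *H2-D1* was at 2162, 2074 and 657 CPM, at 3697.9, 679 and 2863 CPM and at 2358, 1529 and 4876 CPM. A3688 and B3684 were low for both chains and close to each other although only B3684 was treated, and C3698 was the highest tumor for both. Group means of *H2-K1* were 892 ± 528, 1116 ± 684 and 1545 ± 1029 CPM (SD, n = 3 each). The fitted log2 difference of *H2-K1* from saline was 0.32 ± 0.68 (SE) for i.v. TLZ and 0.79 ± 0.69 for NanoTLZ, with adjusted p of 0.893 and 0.719 in edgeR's quasi-likelihood test. For *H2-D1* the group means were 1631 ± 844, 2413 ± 1559 and 2921 ± 1744 CPM, and the log2 differences were 0.57 ± 0.69 and 0.84 ± 0.69 (edgeR adjusted p = 0.797 and 0.701). Part of the sequence of each chain recurs in other class I genes, 9.63% of the 50-base words of *H2-K1* transcripts and 12.8% of those of *H2-D1*, so some reads could have been counted on a relative or not at all. Heavy chains also differ between mouse strains, and how the alleles of these mice matched the reference was not tested. Per length, the ratio of *H2-K1* to *H2-D1* stayed between 0.346 (C3669) and 0.605 (A3685) while *H2-K1* itself ranged over 7.05-fold and *H2-D1* over 7.42-fold between tumors.

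*B2m* (ENSMUSG00000060802, chr2:122147686-122153083, plus strand) encodes beta-2-microglobulin, the light chain without which class I does not reach the surface. It was at 1059, 938 and 435 CPM in the 3 saline tumors, at 1933, 246 and 1435 CPM in the i.v. TLZ tumors and at 1589, 678 and 2159 CPM in the NanoTLZ tumors, an 8.79-fold range. The lowest and a near-highest value both came from i.v. TLZ tumors, B3684 and B3638. Means were 810.5 ± 331, 1205 ± 867 and 1475 ± 747 CPM (SD, n = 3 each). Between i.v. TLZ and saline the fitted difference of *B2m* was 0.57 ± 0.69 (SE) on the log2 scale, next to that of *H2-D1*, with a 95% interval of -0.97 to 2.12, and in NanoTLZ the difference was 0.86 ± 0.70. Neither passed edgeR's test (adjusted p = 0.796 and 0.696). Per length, the 2 heavy chains together were 0.751 (C3519) to 1.397 (B3684) times *B2m*, with group means of 0.954, 1.07 and 0.958 for saline, i.v. TLZ and NanoTLZ. This balance of heavy to light chain varied by 1.86-fold, less than either part did.

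*Tap1* (ENSMUSG00000037321, chr17:34187553-34197225, plus strand) and *Tap2* (ENSMUSG00000024339, chr17:34203527-34216321, plus strand) encode the 2 chains of the peptide transporter. *Tap1* was at 149, 106 and 67.9 CPM in saline, at 179, 21.2 and 127 CPM in i.v. TLZ and at 108, 64.3 and 297 CPM in NanoTLZ tumors. *Tap2* was at 77.8, 104 and 28.5 CPM in saline, 127, 33.1 and 114 CPM in i.v. TLZ and 68.6, 91.5 and 143 CPM in NanoTLZ tumors. The lowest tumor was B3684 for *Tap1* and A3688 for *Tap2*, so the chains did not keep a fixed ratio: per length *Tap1* was 0.442 of *Tap2* in B3684 and 1.64 times *Tap2* in A3688. The log2 differences from saline were 0.02 ± 0.73 (SE) and 0.54 ± 0.73 for *Tap1* after i.v. TLZ and NanoTLZ, and 0.38 ± 0.57 and 0.53 ± 0.57 for *Tap2*. *Tapbp* (ENSMUSG00000024308, chr17:33915899-33929292, plus strand) encodes tapasin, which bridges the transporter and the empty class I molecule. It was at 270.4, 423 and 112 CPM in saline, 548, 190.1 and 294 CPM in i.v. TLZ and 287, 330.4 and 556 CPM in NanoTLZ tumors, and B3684 was less low for it than for any other of the 10 genes, at -0.67 on the log2 scale against the mean of 9 tumors. Its log2 differences were 0.36 ± 0.53 and 0.54 ± 0.53. For these 3 genes edgeR's adjusted p lay between 0.754 and 0.995. *Tapbp* shares 149 exon bases with *Zbtb22* on the same strand, and *Tap1* shares 212 with *Psmb9* on the opposite strand. The strand setting of the counting is not given in the sources used here.

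*Psmb8* (ENSMUSG00000024338, chr17:34197721-34201454, plus strand) and *Psmb9* (ENSMUSG00000096727, chr17:34181987-34187764, minus strand) encode catalytic subunits of the immunoproteasome, which replace the standard subunits *Psmb5* and *Psmb6*. *Psmb8* was at 69.8, 129 and 41.8 CPM in saline, 158, 15.03 and 102 CPM in i.v. TLZ and 83.7, 69.8 and 193 CPM in NanoTLZ tumors. *Psmb9* was at 35.9, 57.4 and 19.8 CPM in saline, 61.4, 6.01 and 37.2 CPM in i.v. TLZ and 40.9, 25.2 and 122 CPM in NanoTLZ tumors, from 110 to 2364 counts. B3684 was far below every other tumor for both, and C3698 was the highest. Fitted log2 differences from saline were 0.19 ± 0.73 (SE) and 0.53 ± 0.73 for *Psmb8* and -0.11 ± 0.78 and 0.74 ± 0.79 for *Psmb9*, after i.v. TLZ and NanoTLZ, with edgeR adjusted p between 0.779 and 0.971. Between NanoTLZ and i.v. TLZ, *Psmb9* had the largest difference of the 10 genes, 0.85 ± 0.79, with a 95% interval of -0.91 to 2.61.

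The ratio of an immunoproteasome subunit to its standard counterpart, both per length, does not depend on the depth or scaling of a library. *Psmb8* over *Psmb5* was 0.235, 0.391 and 0.10 in saline, 0.602, 0.0179 and 0.319 in i.v. TLZ and 0.253, 0.136 and 0.3498 in NanoTLZ tumors. *Psmb9* over *Psmb6* was 0.2003, 0.164 and 0.0442 in saline, 0.1899, 0.0149 and 0.156 in i.v. TLZ and 0.187, 0.0785 and 0.498 in NanoTLZ tumors. Both ratios were lowest in B3684 and spanned 33.6-fold and 33.4-fold over the 9 tumors, and the i.v. TLZ group held the lowest and, for *Psmb8*, the highest ratio. *Psmb5* itself was highest in B3684, at 223 CPM, so the denominator added to that tumor's low ratio. The third pair, *Psmb10* over *Psmb7*, spanned 3.32-fold, with 0.367 in B3684 and the lowest value, 0.3202, in A3688. No test was run on the ratios.

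**Figure D2:**
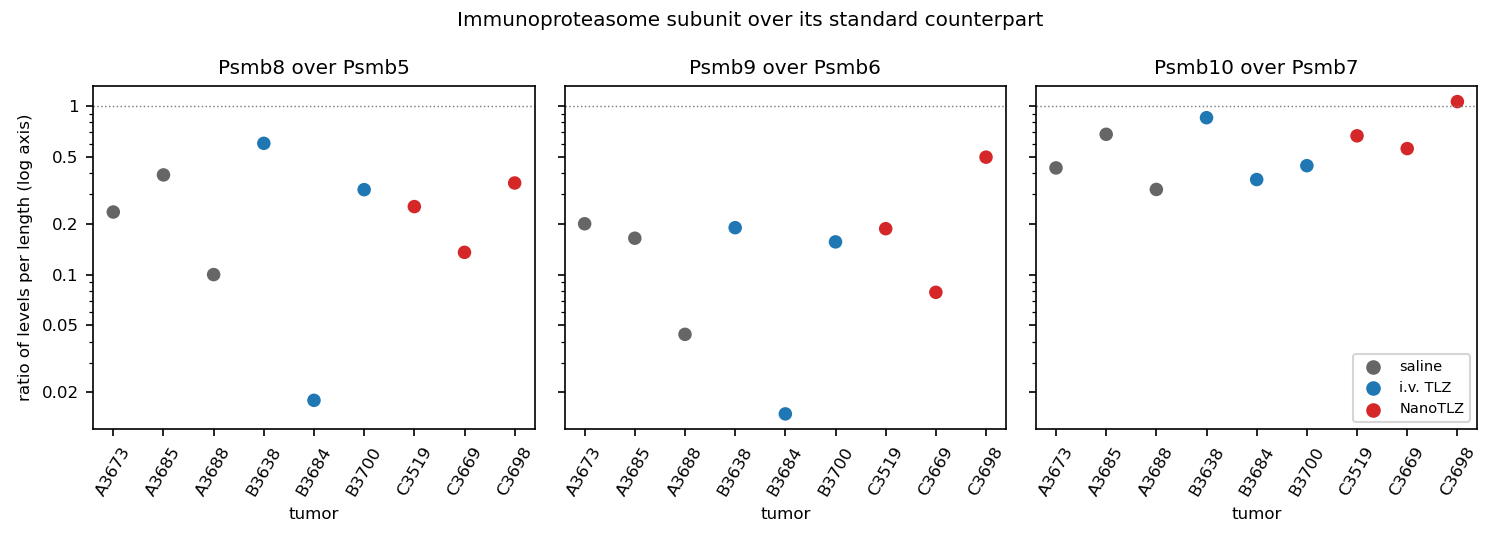
Ratio of the level per length of *Psmb8*, *Psmb9* and *Psmb10* to that of *Psmb5*, *Psmb6* and *Psmb7*, on a log axis with 1 point per tumor, colored by group, and a dotted line at equal levels. B3684 lies at 0.0179 and 0.0149 in the first 2 panels, below all other tumors, but not in the third, where only C3698 is above 1.

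*Nlrc5* (ENSMUSG00000074151, chr8:94434356-94527272, plus strand), the class I transactivator, varied most of the 10 genes. It was at 81.8, 62.3 and 33.9 CPM in saline, 105, 6.396 and 122 CPM in i.v. TLZ and 74.5, 37.1 and 213 CPM in NanoTLZ tumors, a 33.3-fold range from 117 counts in B3684 to 4120 in C3698. B3700 and B3638 of the i.v. TLZ group were above all 3 saline tumors and B3684 was below all of them. Group means were 59.3 ± 24.1, 78.04 ± 62.6 and 108 ± 92.8 CPM (SD, n = 3 each). The log2 differences from saline were 0.40 ± 0.89 (SE) for i.v. TLZ, with a 95% interval of -1.58 to 2.37, and 0.87 ± 0.89 for NanoTLZ, with -1.12 to 2.86, and edgeR's adjusted p was 0.898 and 0.766. Ranked by Pearson correlation of log2 CPM with *Nlrc5* over the 9 tumors, *Tap1* was the first of all 15820 other tested genes (r = 0.979). The nonclassical chains *H2-Q7*, *H2-Q6*, *H2-Q4* and *H2-Q5* followed (0.977, 0.973, 0.966 and 0.964). Of the other members *B2m* was the eighth (0.946), *Psmb9* number 10 (0.944) and *Psmb8* number 15 (0.935). *H2-D1* was number 40 (0.894), *H2-K1* number 104 (0.844), *Tap2* number 203 (0.804), *Erap1* number 723 (0.68) and *Tapbp* number 1010 (0.639). These correlations are a description, all values come from the same 9 libraries, and B3684 and C3698 are far from the rest on both axes. Without those 2 tumors, r for *Tap1* was 0.906.

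*Erap1* (ENSMUSG00000021583, chr13:74639568-74693201, plus strand) encodes the aminopeptidase that trims peptides in the endoplasmic reticulum, and it differed from the other 9 genes in 2 ways. It was at 59.9, 38.6 and 78.4 CPM in saline, 46.6, 18.8 and 41.8 CPM in i.v. TLZ and 49.5, 31.00 and 64.8 CPM in NanoTLZ tumors, so A3688, low for the others, was the highest tumor for *Erap1*. Its group means were 58.95 ± 19.9, 35.7 ± 14.9 and 48.4 ± 16.9 CPM (SD, n = 3 each). It was also the one gene whose fitted level was lower than saline in both treated groups, at -0.72 ± 0.42 (SE) for i.v. TLZ with a 95% interval of -1.66 to 0.22, and -0.28 ± 0.42 for NanoTLZ, with adjusted p of 0.562 and 0.846 in edgeR. Without A3688 the NanoTLZ difference was 0.01, and the i.v. TLZ difference remained below 0 whichever tumor was left out (-0.96 to -0.42). *Erap1* shares 834 exon bases with *Cast* on the opposite strand, and *Cast* had 28205 counts over the 9 tumors against 8490 for *Erap1*, so without the strand setting its counts are uncertain.

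Compared per kilobase of exon, *B2m* was the most abundant in the saline group at 942 ± 385 CPM per kilobase (SD, n = 3), followed by *H2-D1* at 632 ± 327 and *H2-K1* at 304 ± 179.6. This order of the 3 chains held in 9 of 9 tumors, although neighbors overlapped between saline tumors. *Tapbp* came next at 73.97 ± 42.8 and was below *H2-K1* in every tumor with no overlap in saline. The other 6 were lower: *Psmb8* at 23.7, *Tap1* at 19.6, *Tap2* at 18.5, *Psmb9* at 10.3, *Erap1* at 8.098 and *Nlrc5* at 6.99. Their order was less fixed. *Psmb8* was above *Tap1* in 7 of 9 tumors, *Tap1* above *Tap2* in 4, *Psmb9* above *Erap1* in 7 and *Erap1* above *Nlrc5* in 2, and each of these neighbors overlapped in saline. Taking the longest transcript as the length left the saline order as it was.

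The spread between tumors was the main feature of these genes. The SD of log2 CPM over the 9 tumors ran from 0.62 for *Erap1* to 1.45 for *Nlrc5*, and all 10 were above the median of 0.547 over all tested genes. Between 58.1% (*Erap1*) and 93.5% (*Nlrc5*) of tested genes had a smaller SD. The 3 groups accounted for a median of 11.9% of the variance of the 10 genes, beside 22.8% over all tested genes, so most of it lay between tumors of the same group. *Erap1* was the exception to this order, with 29.8% of its variance between groups, above the median of all tested genes. B3684 was among the lowest 3 tumors for all 10 genes and the lowest for 6, with a median deviation of -1.74 on the log2 scale from each gene's mean. A3688 was the lowest for the other 4 (*H2-K1*, *H2-D1*, *Tap2* and *Tapbp*), with a median deviation of -1.02. C3698 was the highest for 9 genes, with a median deviation of 1.32, and B3638 was among the highest 3 for 9. By this median the 2 highest tumors came from the NanoTLZ and i.v. TLZ groups and the 2 lowest from the i.v. TLZ and saline groups.

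**Figure D3:**
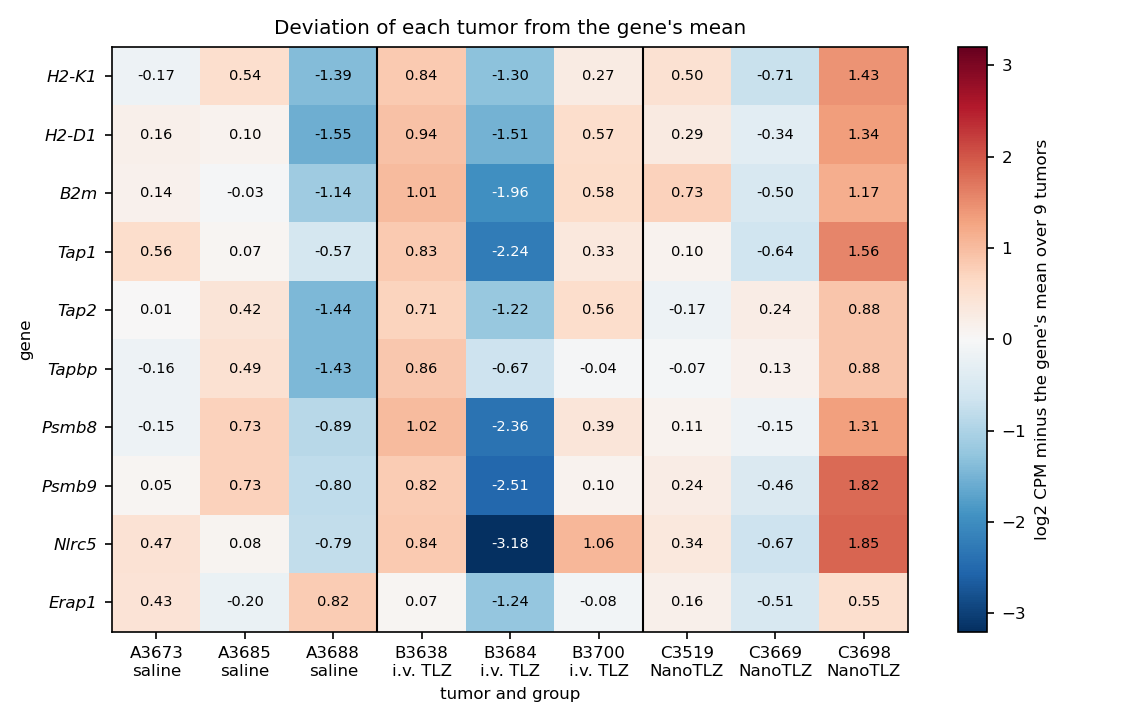
Deviation of log2 CPM in each tumor (columns, grouped by treatment) from the gene's mean over 9 tumors (rows), printed and colored from blue (lower) to red (higher). B3684 reaches -3.18 for *Nlrc5*, A3688 is below the mean for 9 genes and at 0.82 for *Erap1*, and C3698 is above the mean for all 10.

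Marker levels of other cell types also differed between these tumors. The 6 T cell genes (*Cd3e*, *Cd3d*, *Cd3g*, *Cd8a*, *Cd8b1* and *Cd4*) summed to 4.52 to 14.2 in saline, 2.13 to 23.4 in i.v. TLZ and 16.4 to 35.2 in NanoTLZ, in CPM. B3684 had the lowest sum, 2.13 CPM, with 5 of the 6 genes at their lowest there and none at 0, and C3698 had 32.8 CPM, next to the highest sum, in C3519. *Cd4*, which is not confined to T cells, made up 9.18 CPM of the sum in A3688 and 14.9 CPM of that in C3519. On the other 5 genes A3688, at 1.61 CPM, was second lowest after B3684, and C3698, at 27.3 CPM, was the highest. Without *Cd4* the saline and NanoTLZ groups overlapped, with 11.9 CPM in A3685 and 8.73 CPM in C3669. The 5 macrophage genes summed to 345 to 1354 in saline, 571 to 1291 in i.v. TLZ and 1269 to 1748 in NanoTLZ, with 571 CPM in B3684 and all 5 at their highest in C3698. The 4 pan-leukocyte genes summed to 109 to 455 in saline, 169.9 to 418 in i.v. TLZ and 369 to 576 in NanoTLZ, with B3684 second lowest after A3688 and C3698 highest. The 5 dendritic cell genes ran from 10.9 to 63.05 in saline, 40.5 to 82.4 in i.v. TLZ and 66.5 to 106 in NanoTLZ. Most of this sum was *Itgax*, at 93.6 CPM in C3519. *Itgax* by itself overlapped between saline and NanoTLZ, with 49.4 CPM in A3685 and 47.2 CPM in C3698. *Batf3* and *Xcr1* overlapped too, and *Xcr1* was below all saline tumors in C3519 and C3669 (0.385 and 0.382 CPM). *Flt3* and *Clec9a* were higher in every NanoTLZ tumor than in saline, at most at 1.201 CPM. The 5 NK cell genes ran from 0.114 to 1.93 in saline, 1.08 to 2.23 in i.v. TLZ and 1.31 to 3.41 in NanoTLZ. Among the NK cell genes the defining marker *Ncr1* was at 0 counts in 8 of the 9 tumors, and *Ncr1*, *Klrk1* and *Gzma* were at 0 in B3684. *Klrb1c* of the same list was instead at its highest there, at 1.31 CPM from 24 counts, nearly the whole of that tumor's sum, which was 0.0547 CPM on the other 4 genes. The 4 neutrophil genes summed to 8.58 to 197 in saline, 37.01 to 167 in i.v. TLZ and 52.6 to 165 in NanoTLZ, and the 4 B and plasma cell genes to 0.826 to 2.62 in saline, 2.16 to 24.4 in i.v. TLZ and 2.46 to 36.6 in NanoTLZ, in both with B3684 inside the range of the other tumors. Stromal marker sums were also lowest in B3684. The 4 fibroblast genes summed to 964 to 1673 in saline, 814 to 4914 in i.v. TLZ and 1339 to 2547 in NanoTLZ. The 4 endothelial genes summed to 54.2 to 106 in saline, 48.2 to 119.9 in i.v. TLZ and 107 to 131 in NanoTLZ. In each of these lists only 2 of the 4 genes were lowest in B3684. *Dcn* and *Pdgfra* of the fibroblast list were at 30.3 and 31.2 CPM there, above all saline tumors. The 4 adipocyte genes summed to 1.61 CPM or less except in C3519. The 6 mammary epithelial genes summed to 4012 to 7673 in saline, 4855 to 5659.7 in i.v. TLZ and 3413 to 5040.1 in NanoTLZ. Their lowest sum was in C3698, where *Krt8* and *Krt18* were at their lowest, at 738 and 499 CPM. *Epcam* was not low there, at 1163 CPM in a range of 604 to 1368 CPM. *Cdh1*, at 457 CPM in C3698, was lower in A3688 and C3669. *Krt14* was at its lowest in B3684, at 122 CPM, against 554 CPM in C3698. *Krt5* was also lowest in B3684, at 2.296 CPM, next to 2.33 CPM in C3698. In A3688 *Krt5* made up 1849 CPM of a sum of 5400 CPM. Skeletal muscle genes summed to 18.1 to 558 in saline, 0.711 to 2.38 in i.v. TLZ and 1.19 to 2.65 in NanoTLZ, with the highest sum in A3688. The part of these cells in the class I levels was not tested.

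**Figure D4:**
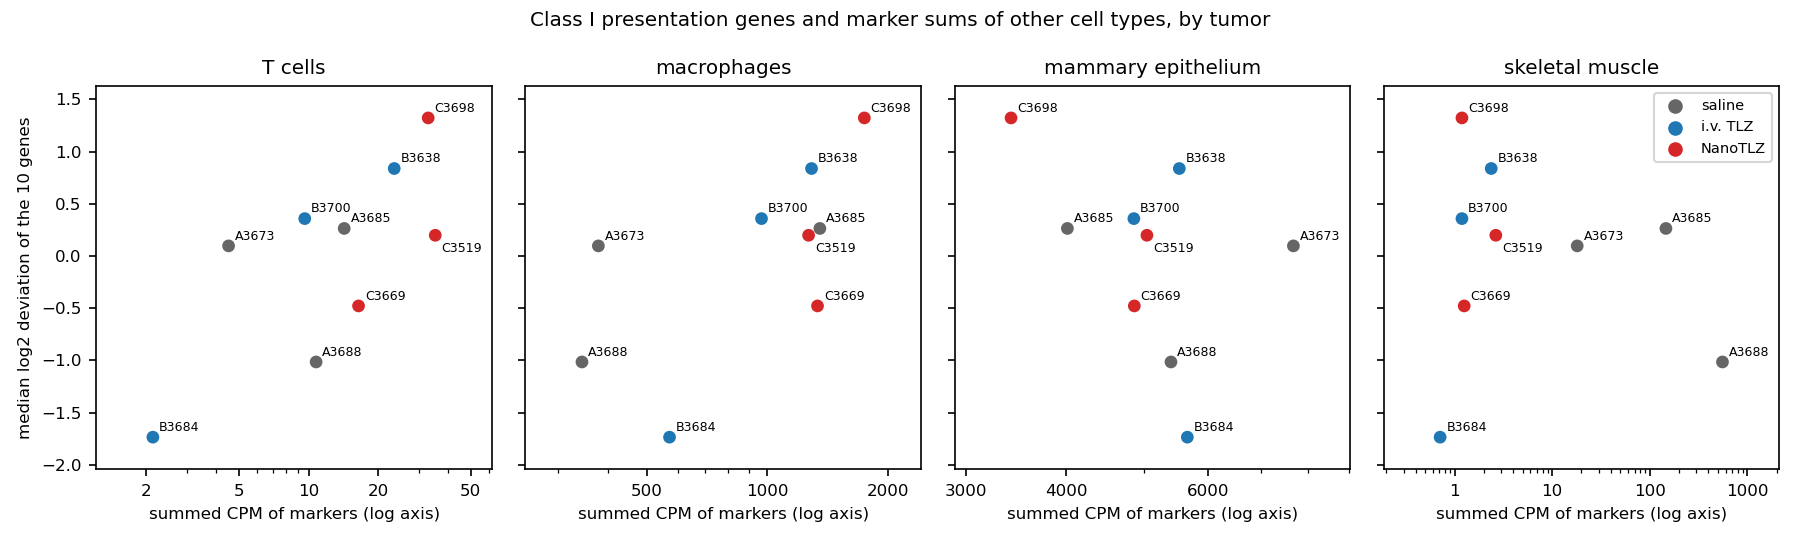
Median log2 deviation of the 10 class I presentation genes in each tumor (vertical axis) against the summed CPM of markers of T cells, macrophages, mammary epithelium and skeletal muscle (horizontal log axes), 1 point per tumor colored by group. B3684 has the lowest T cell sum and class I deviation, C3698 the highest macrophage sum and class I deviation, and C3669 has a macrophage sum close to that of A3685 and a deviation of -0.48 where A3685 has 0.26.

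Between the treated groups the question was whether the nanoparticle form differed from the free drug at the same dose. All 10 genes had higher fitted levels in NanoTLZ than in i.v. TLZ, with log2 differences from 0.14 (*Tap2*) to 0.85 (*Psmb9*) and a median of 0.39, beside -0.04 over all tested genes. For *H2-K1* the difference was 0.47 ± 0.69 (SE) and for *Erap1* 0.44 ± 0.42. EdgeR called 0 of the 10 (0% of all tested genes), the adjusted p was 0.9999 for each, 0 reached an unadjusted p under 0.05 (1.68% of all tested genes), and the groups overlapped for all 10 (7.61% of all tested genes did not overlap). The direction rested on single tumors: without C3698 the median was -0.15, without B3684 it was -0.09, and without B3638 it was 0.78. The 95% intervals reached from -1.51 to 2.61.

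With both treated groups averaged and set against saline, the median log2 difference of the 10 genes was 0.45, from -0.50 (*Erap1*) to 0.72 (*B2m*), beside -0.06 over all tested genes. EdgeR called 0 of the 10 (0.019% of all tested genes, namely *Col2a1*, *Myl1* and *Myh4*), with adjusted p between 0.557 and 0.878. An unadjusted p under 0.05 was reached by 0 of the 10 (13.1% of all tested genes), and for none were the 6 treated tumors all on one side of the saline tumors (5.47% of all tested genes). Without A3688 this median was 0.10 and without A3685 it was 0.84. For i.v. TLZ against saline the median was -0.16 without B3638, -0.02 without A3688 and 0.71 without B3684. For NanoTLZ against saline it was 0.08 without C3698, 0.39 without A3688 and 1.04 without C3669. Without A3688 the log2 differences for i.v. TLZ against saline were -0.042 for *H2-K1*, 0.19 for *H2-D1*, 0.28 for *B2m*, -0.22 for *Tap1*, 0.013 for *Tap2*, -0.0056 for *Tapbp*, -0.12 for *Psmb8*, -0.42 for *Psmb9*, 0.12 for *Nlrc5* and -0.45 for *Erap1*. For NanoTLZ against saline they were 0.45 for *H2-K1*, 0.49 for *H2-D1*, 0.59 for *B2m*, 0.33 for *Tap1*, 0.18 for *Tap2*, 0.20 for *Tapbp*, 0.24 for *Psmb8*, 0.45 for *Psmb9*, 0.62 for *Nlrc5* and 0.0069 for *Erap1*. Each of the 9 genes other than *Erap1* was thus lower, and *Erap1* higher, than with A3688 included. For 9 of the 10 genes the 95% intervals against saline included a log2 difference of 1 in each treated group. The exception was *Erap1*, whose upper 95% limits against saline were 0.22 for i.v. TLZ and 0.65 for NanoTLZ.

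**Figure D5:**
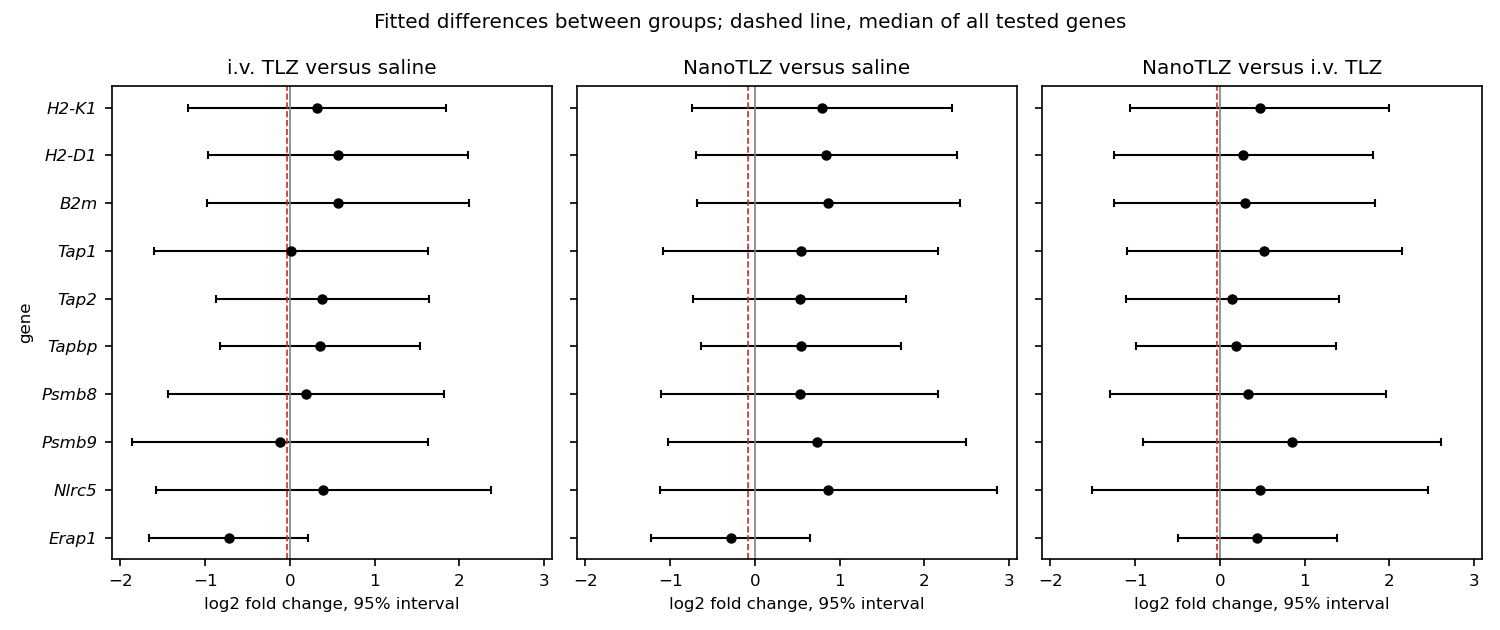
Fitted log2 differences of the 10 genes with 95% intervals in 3 comparisons, with a solid line at 0 and a dashed line at the median of all tested genes. Every interval includes 0, and the widest are those of *Nlrc5*.

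The wider pathway was described with 50 further genes in 7 lists, of which 48 were tested. EdgeR called 0 of the 48 in each comparison. DESeq2 called 0 of the 50 when fitted to all 9 tumors and 1 (*Mr1*, NanoTLZ against saline, adjusted p = 0.0167) when fitted to the groups compared. Without adjustment 5 had a p under 0.05 for i.v. TLZ against saline, 5 for NanoTLZ against saline, 0 between the treated groups and 5 for the treated groups averaged, beside 10.4%, 8.99%, 1.68% and 13.1% of all tested genes. All 6 treated tumors lay on one side of saline for 3 of the 48 (*Mr1*, *Blmh* and *Irf2*), beside 5.47% of all tested genes. Among 16 other class I heavy chain genes, 15 were tested, and their median log2 difference was 0.41 for i.v. TLZ and 0.89 for NanoTLZ against saline, with 10 and 11 positive. Without B3638 the first of these medians was -0.38 and without A3688 it was 0.078, and without C3698 the second was 0.048. *H2-Q7*, a nonclassical chain, was at 725, 429 and 112 CPM in saline, 902, 23.5 and 832 CPM in i.v. TLZ and 728, 126 and 1992 CPM in NanoTLZ tumors, with B3684 lowest and C3698 highest as for *B2m*. *H2-T23* was steadier, from 89.00 CPM in B3684 to 257 CPM in C3698. *H2-Q7* and *H2-T23* were named after their values were seen, to show the range within the list.

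*Mr1*, which presents vitamin metabolites to MAIT cells, had lower values after treatment in these tumors. It was at 21.3, 19.6 and 23.9 CPM in saline, 4.94, 1.26 and 11.96 CPM in i.v. TLZ and 5.44, 9.99 and 4.92 CPM in NanoTLZ tumors, and none of the 6 treated tumors reached the lowest saline tumor. The log2 differences were -1.84 ± 0.67 (SE) and -1.67 ± 0.67, and neither passed edgeR's quasi-likelihood test after adjustment (adjusted p = 0.443 and 0.552). *H2-M2* was at 1.83, 29.5 and 0.872 CPM in saline, 34.3, 12.4 and 65.3 CPM in i.v. TLZ and 154, 63.9 and 22.2 CPM in NanoTLZ tumors, with a log2 difference of 2.90 ± 1.23 for NanoTLZ (edgeR adjusted p = 0.552) and groups that overlapped. *H2-Bl* had log2 differences of 2.21 ± 0.82 and 2.13 ± 0.82, with edgeR adjusted p of 0.443 and 0.552, but was at or below 1.55 CPM in every tumor.

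Peptidases other than *Erap1* were lower in fitted level than saline for 5 of 5 genes in both treated groups, with median log2 differences of -0.42 and -0.44, beside 52.4% and 56.1% of all tested genes that were lower. For *Lnpep*, *Npepps* and *Tpp2* this direction leaned on the saline tumor A3673, where each was highest. In saline *Lnpep* was at 128, 41.6 and 18.9 CPM, *Npepps* at 313, 208 and 94.4 CPM and *Tpp2* at 158, 68.3 and 64.2 CPM. Without A3673, 3 of the 5 were lower after i.v. TLZ and 2 after NanoTLZ, with medians of -0.04 and 0.20. *Thop1* and *Blmh* stayed lower in both treated groups without A3673, at -0.61 and -0.61 for *Thop1* and -0.69 and -0.77 for *Blmh*. Without A3688 *Thop1* was at -0.13 in both. The bleomycin hydrolase gene *Blmh* was at 85.7, 41.3 and 76.4 CPM in saline, 37.7, 38.1 and 32.7 CPM in i.v. TLZ and 40.2, 28.9 and 32.2 CPM in NanoTLZ tumors, with all treated tumors below saline, and its log2 differences were -0.91 ± 0.31 (SE) and -1.005 ± 0.31 (edgeR adjusted p = 0.437 and 0.552). Loading chaperones (*Calr*, *Canx*, *Pdia3* and *Tapbpl*), other immunoproteasome parts (*Psmb10*, *Psme1* and *Psme2*) and standard subunits (*Psmb5*, *Psmb6* and *Psmb7*) had 0 genes with an unadjusted p under 0.05 in any comparison. Their median log2 differences for NanoTLZ against saline were 0.12, 0.45 and -0.02.

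Of 13 class I transcription factor genes, *Irf2* passed an unadjusted p of 0.05 for i.v. TLZ and for the treated groups averaged, and *Atf1* for i.v. TLZ, NanoTLZ and the treated groups averaged, all against saline. *Irf2*, which binds interferon response elements, was at 47.8, 42.7 and 57.9 CPM in saline, 28.1, 26.9 and 33.4 CPM in i.v. TLZ and 30.2, 29.2 and 42.4 CPM in NanoTLZ tumors, with all treated tumors below saline and a log2 difference of -0.65 ± 0.22 (SE) for the treated groups averaged (edgeR adjusted p = 0.301). For NanoTLZ alone its unadjusted p was 0.0671. *Atf1*, a CREB family factor, had -0.64 ± 0.22 in the same comparison (edgeR adjusted p = 0.294), and its i.v. TLZ tumors overlapped saline. Of the 13 genes, 2 had no overlap with saline for i.v. TLZ and 3 for NanoTLZ, beside 11.2% and 15.9% of all tested genes. A pair of these that reached no such p lay apart from saline in 1 treated group and are named after their values were seen. *Rfxap*, a subunit of the RFX complex on MHC promoters, was at 26.6, 21.8 and 27.1 CPM in saline and 33.3, 40.6 and 34.4 CPM in i.v. TLZ tumors, with a log2 difference of 0.52 ± 0.25 (edgeR adjusted p = 0.497). *Nfyb*, a subunit of the CCAAT-binding factor NF-Y, was at 18.6, 16.2 and 47.5 CPM in saline and 16.03, 15.5 and 11.5 CPM in NanoTLZ tumors, with -0.93 ± 0.43 (edgeR adjusted p = 0.562), and its saline level was highest in A3688. *Irf1* was lowest in A3688 at 27.8 CPM and highest in B3638 at 134 CPM. *Ifng*, the gene of the cytokine itself, was too low to be tested: it was at 1.03 CPM in C3698, at most 0.436 CPM in the others, and at 0 counts in A3688 and C3669, where 3 counts would be 0.138 and 0.164 CPM. Of the 5 tested genes listed for the interferon-gamma receptor pathway (*Ifngr1*, *Ifngr2*, *Jak1*, *Jak2* and *Socs1*), 0 had an unadjusted p under 0.05.

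Of the 10 genes outside the members with the closest patterns over the 9 tumors, 5 were class I heavy chain genes. By Pearson correlation of log2 CPM with the mean of the members' standardized log2 CPM, the first was *H2-Q4* (r = 0.989), followed by *H2-T22* (0.982), *Cables2* (0.98), *H2-Q6* (0.977), *H2-Q5* (0.976), *H2-Q7* (0.967), *Mgrn1* (0.958), *Gm12708* (0.951), *C4b* (0.949) and *9330175E14Rik* (0.948). Without B3684 and A3688, the 2 tumors farthest from the median of the members, r over 7 tumors was 0.961 for *H2-Q4*, 0.982 for *H2-T22* and 0.943 for *Cables2*, and the lowest of the 10 was 0.816 for *Gm12708*. *H2-Q4*, *H2-Q5*, *H2-Q6*, *H2-Q7* and *H2-T22* are class I genes related to the heavy chains, and *9330175E14Rik* shares 78 exon bases with *Nlrc5* on the opposite strand. How reads were divided among such genes was not tested. *C4b*, a complement gene, lies in the MHC region, and *Mgrn1* encodes a ubiquitin ligase. The ranking is a description of 9 tumors.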

How the data were processed

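RNA from 9 whole tumors, 3 per group, was sequenced by Novogene. The authors deposited raw counts of reads per gene for each tumor, without normalization. The submitters' processing notes name TopHat2, DESeq2 and the mm10 build. The counting program, annotation, versions and strand setting are not given in the sources used here. Groups were taken from the labels. Symbols and positions came from GENCODE M21 (GRCm38), which held 34490 of the 35275 identifiers.

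Genes were kept with filterByExpr (minimum count 10, minimum total 15), which left 15821. Counts were scaled by TMM, fitted to all 9 tumors with 1 coefficient per group, and tested by the quasi-likelihood F-test of edgeR 4.0.16 (R 4.3.3) with Benjamini-Hochberg adjustment over all tested genes. The threshold for a call was an adjusted p of 0.05. Intervals are at 95%. Log2 CPM used a prior count of 2. Depth per tumor was 17538380 to 21194980 counts, and a floor of 3 counts covers counting error only. Levels per length used the union of annotated exons. Alternatives were RLE and upper quartile scaling, no filter, at least 10 counts in every tumor, DESeq2 1.42.0, fits to the groups compared, the longest transcript as length, and each tumor left out in turn. The methods were tested on simulated data.

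The 10 genes, the 50 other pathway genes and the marker lists were chosen with earlier results of these data known. Named by value were the 10 genes, pathway genes with an unadjusted p under 0.05 against saline or with no overlap between the 3 saline and all 6 treated tumors (at most 4 per list and comparison), and the 10 genes most like the members over the 9 tumors. *H2-Q7*, *H2-T23*, *Irf1*, *Ifng*, *Rfxap*, *Nfyb*, the peptidases *Lnpep*, *Npepps*, *Tpp2* and *Thop1*, and the proteasome counterparts were named beside these. Values of 1 listed gene are not reported here.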

Additional observations from a re-analysis of the deposited data

How the results depend on the processing

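In every alternative 0 of the 10 genes were called and 0 had an unadjusted p under 0.05. Their directions held under all scalings, filters and tools, and turned when single tumors were left out, in 12 of 90 values for i.v. TLZ against saline, 5 of 90 for NanoTLZ against saline, 15 of 90 between the treated groups and 3 of 90 for the averaged groups. With each tumor left out in turn, the median log2 difference ran from -0.16 to 0.71, from 0.08 to 1.04, from -0.15 to 0.78 and from 0.10 to 0.84 in these comparisons. The single genes had the following log2 differences over these fits. For i.v. TLZ against saline these were -0.17 to 0.83 for *H2-K1*, 0.12 to 1.005 for *H2-D1*, 0.051 to 1.05 for *B2m*, -0.54 to 0.50 for *Tap1*, 0.013 to 0.78 for *Tap2*, -0.15 to 0.84 for *Tapbp*, -0.46 to 0.71 for *Psmb8*, -0.80 to 0.38 for *Psmb9*, -0.085 to 0.94 for *Nlrc5* and -0.96 to -0.42 for *Erap1*. For NanoTLZ against saline these were 0.19 to 1.31 for *H2-K1*, 0.28 to 1.18 for *H2-D1*, 0.51 to 1.24 for *B2m*, -0.29 to 0.95 for *Tap1*, 0.18 to 0.92 for *Tap2*, 0.20 to 1.03 for *Tapbp*, -0.033 to 1.05 for *Psmb8*, -0.16 to 1.17 for *Psmb9*, -0.057 to 1.31 for *Nlrc5* and -0.52 to 0.0069 for *Erap1*. Between the treated groups these were -0.14 to 0.96 for *H2-K1*, -0.29 to 0.72 for *H2-D1*, -0.19 to 0.81 for *B2m*, -0.31 to 1.08 for *Tap1*, -0.25 to 0.46 for *Tap2*, -0.13 to 0.70 for *Tapbp*, -0.23 to 0.99 for *Psmb8*, -0.052 to 1.54 for *Psmb9*, -0.46 to 0.99 for *Nlrc5* and 0.13 to 0.70 for *Erap1*. For the averaged groups these were 0.20 to 1.07 for *H2-K1*, 0.34 to 0.97 for *H2-D1*, 0.43 to 0.97 for *B2m*, -0.13 to 0.60 for *Tap1*, 0.097 to 0.85 for *Tap2*, 0.098 to 0.94 for *Tapbp*, 0.034 to 0.88 for *Psmb8*, -0.14 to 0.75 for *Psmb9*, 0.17 to 0.95 for *Nlrc5* and -0.73 to -0.22 for *Erap1*. The pair left in a group was assumed to vary like the others. The lowest count of the 10 genes in any tumor was 110. No paired analysis was possible because no tumor number in the labels is common to 2 groups.

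Over all tested genes, edgeR called 0, 1, 0 and 3 genes in these comparisons. Calls without the filter were 5, 6, 0 and 33. With at least 10 counts in every tumor the averaged comparison had 1. DESeq2 on all 9 tumors called 194, 110, 3 and 273, and on the groups compared 92, 171 and 21. EdgeR on the groups compared called 0 for NanoTLZ against saline. Leaving out 1 tumor gave 0 to 3 calls for NanoTLZ against saline and 0 to 18 for the averaged groups. The cause was not tested. After the data were seen, the interferon core was also counted by its first form alone, and the T and NK cell marker sums without *Cd4* or *Klrb1c*, with the values given above.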
